A study of Mus musculus with 12 samples.

Results

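The CC chemokines Ccl2, Ccl3, Ccl4, Ccl5, Ccl6, Ccl7, Ccl9 and Ccl20 were followed in murine control and injured hip cartilage. Members were taken by gene symbol, and all 8 genes were on the array, with 11 probes among the 30854 gene symbols measured. The normalized table held 9 probes of 7 members, and Ccl20 was present only among the unnormalized signals. RNA was hybridized to Illumina mouse BeadChips, which carry gene-specific probes on coated beads. The 12 arrays formed 4 groups of 3, control and injured cartilage of WT mice and of Mapk9 KO mice. All mice were C57BL6, aged 4-6 weeks per the labels and 5-6 weeks per the methods, and the KO groups lacked Mapk9, the gene of a c-Jun N-terminal kinase. The labels do not state how the knockout was made. Each replicate pooled 6 hips of 3 mice per the methods, which describe control and injured cartilage and do not name the KO arrays. Per the methods, the femoral epiphysis was avulsed and the cartilage was then either snap-frozen at once, as the control, or kept in serum-free medium for 4 h, as the injured group. Effects of the time since injury and of culture therefore cannot be told apart in any comparison given here.

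Chemokines are small secreted proteins that direct the migration of leukocytes through G protein-coupled receptors. The CC class, named for a pair of adjacent cysteines, mainly attracts monocytes, macrophages, eosinophils and T cells. Ccl2 and Ccl7 are monocyte chemoattractants that act through Ccr2, and Ccl7 also binds Ccr1 and Ccr3. Ccl3 and Ccl4 are macrophage inflammatory proteins, and Ccl3 binds Ccr1. Ccl5 is made by T cells and many activated cells, Ccl6 and Ccl9 are myeloid chemokines of rodents that bind Ccr1, and Ccl20 is the ligand of Ccr6. Transcription of many of these genes is induced by interleukin-1 and TNF through NF-kB and AP-1.

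The measurements rest on 50-base probes, and the sequences of 4 probes whose members rose after injury are given to show what was hybridized. Each holds at least 1 reading frame without a stop codon. Capitals mark the longest run of bases shared by probes of different members, 10 bases between the Ccl3 and Ccl7 probes.

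Ccl2: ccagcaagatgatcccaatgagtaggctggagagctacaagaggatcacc
Ccl3: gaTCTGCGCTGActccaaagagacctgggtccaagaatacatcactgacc
Ccl4 (dimmer of its probes): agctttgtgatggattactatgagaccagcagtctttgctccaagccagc
Ccl7 (brighter of its probes): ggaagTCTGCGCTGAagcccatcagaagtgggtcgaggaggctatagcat

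In the RefSeq gene table (GRCm38.p6), 7 members lie on chromosome 11 and Ccl20 lies on chromosome 1. Ccl2 and Ccl7 are direct neighbours, with 0 protein-coding genes between them. Ccl11, Ccl12, Ccl8 and Ccl1 follow next to Ccl7, and 29 protein-coding genes separate Ccl7 from Ccl5. Ccl5, Ccl9, Ccl6, Ccl3 and Ccl4 form the other run, again with 0 protein-coding genes between neighbours, and the spans of Ccl3 and Ccl4 overlap there.

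Between 16930 and 18969 of 45281 probes were detected per array, where a detection p-value under 0.05 means brighter than nearly all negative control beads. The median signal before normalization ran from 121 to 190 between arrays. Correlations between arrays over all normalized probes lay between 0.868 and 0.986, and no array was a copy of another. The brighter Mapk9 probe lay between 10.05 and 10.90 in the 6 WT arrays and between 8.69 and 9.28 in the 6 KO arrays, a log2 difference of -1.57 in control and -1.57 in injured cartilage (adjusted p = 0.0151 and 0.00485). The dimmer Mapk9 probe was not detected on any KO array and was detected on 4 of the 6 WT arrays. Signal for the brighter probe thus remained in KO, and where the probe lies relative to the altered part of the gene is not given in the sources used here. Of the markers that define cartilage, Col2a1, Acan and Sox9 were detected on all 12 arrays.

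After injury, 5 of the 8 CC chemokines were higher in WT cartilage, and the same 5 genes were higher in Mapk9 KO cartilage: Ccl2, Ccl3, Ccl4, Ccl6 and Ccl7. Among those detected on all arrays, Ccl4 was 39.7-fold higher in WT and 46.8-fold higher in KO, and Ccl6 was 3.38-fold and 3.50-fold higher. The folds of Ccl2 and Ccl3 are lower bounds, so the members were not ranked. Ccl5 and Ccl9 did not pass, and Ccl20 was at background. A gene was called where limma gave an adjusted p under 0.05 and the fold exceeded 2. Among all 15424 gene symbols of the normalized table, 8.36% were called higher and 8.25% lower after injury in WT, and 10.6% were called higher and 10.4% lower in KO. Ccl2 and Ccl3 were detected on injured arrays alone. All values below are normalized log2 levels unless stated, and levels were compared within a probe. The sums over marker lists are the exception, because they add linear levels of different genes, whose probes differ in brightness. In whole tissue, more cells of a type and more RNA per cell cannot be told apart.

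**Figure D1:**
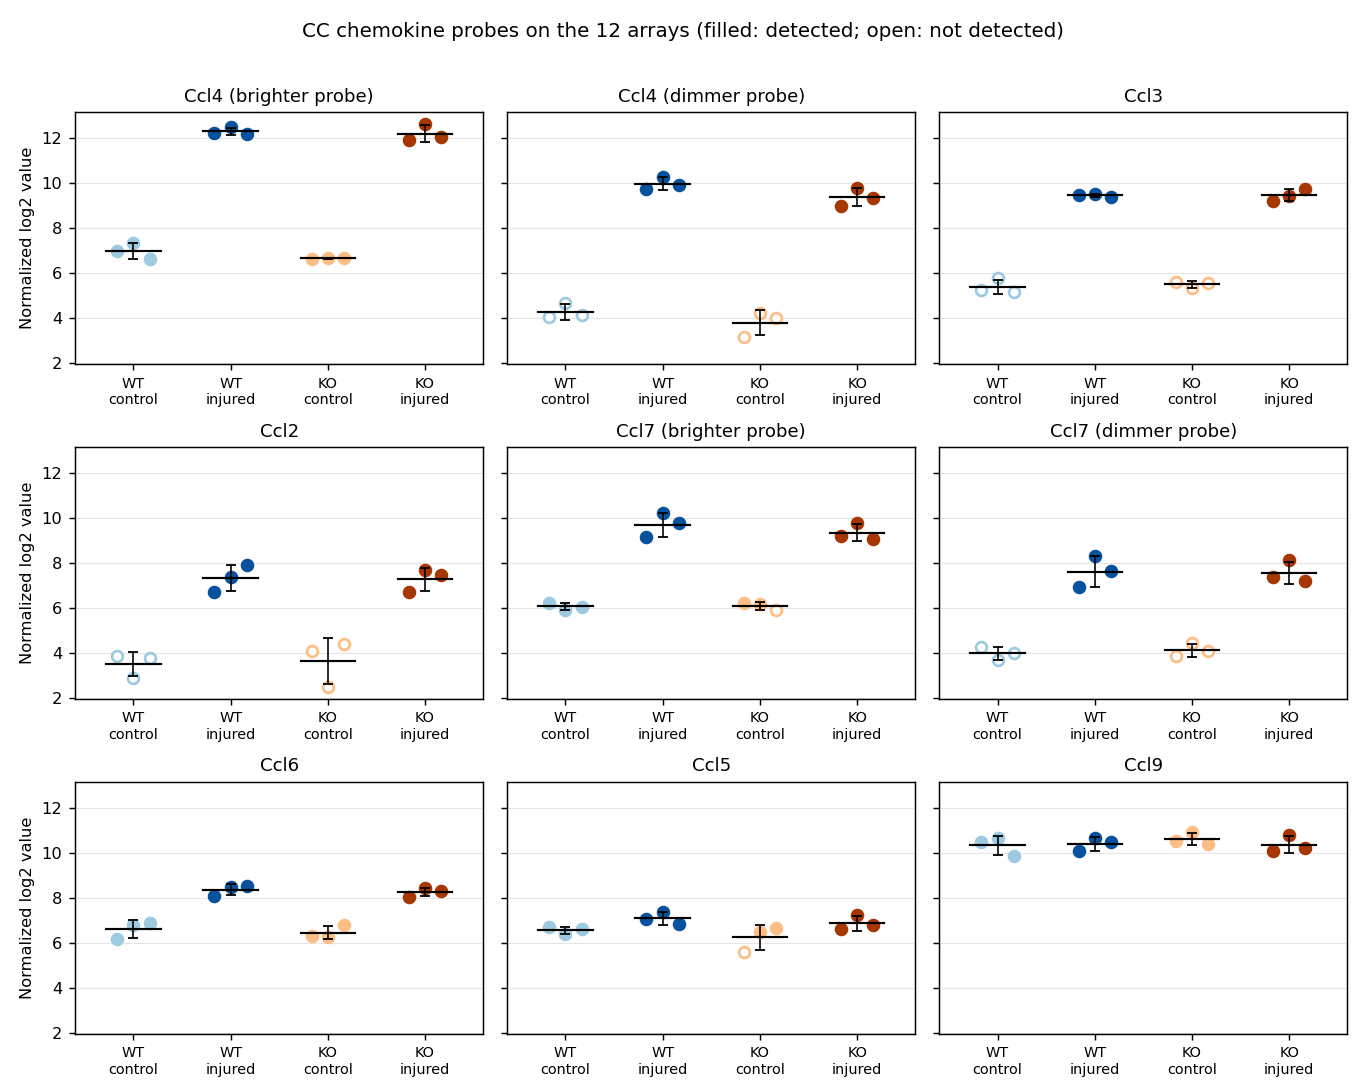
Normalized log2 value of each of the 9 CC chemokine probes (vertical axis) on the 3 arrays of each group (horizontal axis), with filled points for detected and open points for undetected values, a bar at the mean and whiskers of 1 SD. The injured groups lie above their controls without overlap for Ccl2, Ccl3, Ccl4, Ccl6 and Ccl7 in both genotypes, whereas Ccl9 lies between 9.85 and 10.92 in all groups.

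The monocyte chemoattractants Ccl2 and Ccl7 were both higher after injury. Ccl2 was 3.85, 2.91 and 3.77 in WT control and 6.73, 7.36 and 7.91 in WT injured cartilage. In KO, Ccl2 was 4.10, 2.47 and 4.39 in control and 6.69, 7.67 and 7.45 in injured cartilage. All 6 control values were below detection and all 6 injured values were detected, with no overlap. Measured against the lowest detected level of each control array, Ccl2 was at least 2.80-fold higher in WT and at least 2.52-fold higher in KO. The fitted log2 differences were 3.82 (SE 0.34, adjusted p = 5.29e-05) and 3.62 (SE 0.44, adjusted p = 9.85e-05), and their size depends on control values that lie below detection.

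Ccl7, the gene next to Ccl2, was read by 2 probes. On the brighter probe it was 6.24, 5.91 and 6.06 in WT control and 9.14, 10.20 and 9.78 in WT injured cartilage. In KO the same probe gave 6.20, 6.18 and 5.89 in control and 9.19, 9.79 and 9.06 in injured cartilage. The probe was detected on all 3 WT control arrays and on 2 of 3 KO control arrays, so the level in control cartilage was just above background. The log2 difference was 3.64 in WT (SE 0.27, 12.4-fold, adjusted p = 1.91e-05) and 3.25 in KO (SE 0.22, 9.54-fold, adjusted p = 1.51e-06). The dimmer probe was not detected in any control and rose at least 3.42-fold in WT and at least 3.10-fold in KO.

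The macrophage inflammatory proteins Ccl3 and Ccl4 were higher after injury in every injured array than in any control array. Ccl3 was 5.23, 5.76 and 5.17 in WT control and 9.46, 9.53 and 9.39 in WT injured cartilage, with SDs of 0.33 and 0.069. In KO it was 5.62, 5.34 and 5.57 in control and 9.22, 9.44 and 9.73 in injured cartilage. Ccl3 was undetected on all 6 control arrays and detected on all 6 injured arrays. It was at least 12.2-fold higher in WT (log2 difference 4.07, SE 0.22, adjusted p = 2.58e-06) and at least 11.5-fold higher in KO (3.95, SE 0.19, adjusted p = 1.99e-07).

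Ccl4, on its brighter probe, was 7.00, 7.36 and 6.63 in WT control and 12.24, 12.48 and 12.19 in WT injured cartilage. In KO it was 6.62, 6.65 and 6.69 in control and 11.93, 12.63 and 12.04 in injured cartilage. This probe was detected on all 12 arrays, so both sides of the comparison were measured. The log2 difference was 5.31 in WT (SE 0.23, adjusted p = 1.04e-06) and 5.55 in KO (SE 0.21, adjusted p = 6.47e-08). The dimmer Ccl4 probe was undetected in every control and rose at least 17.5-fold in WT and at least 10.8-fold in KO. Both probes moved the same way.

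The Ccr1 ligands Ccl6 and Ccl9, which neighbour each other in the genome, fell on opposite sides of the threshold; the difference between them was not tested. Ccl6 was 6.16, 6.81 and 6.86 in WT control and 8.09, 8.47 and 8.55 in WT injured cartilage. In KO it was 6.30, 6.28 and 6.78 in control and 8.04, 8.42 and 8.30 in injured cartilage. Ccl6 was detected on all 12 arrays, its groups did not overlap, and its log2 difference was 1.76 in WT (SE 0.25, adjusted p = 0.000745) and 1.81 in KO (SE 0.20, adjusted p = 5.17e-05).

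Ccl9 was present in control cartilage and did not pass the test. It was 10.49, 10.64 and 9.85 in WT control and 10.07, 10.68 and 10.48 in WT injured cartilage. In KO it was 10.53, 10.92 and 10.38 in control and 10.08, 10.78 and 10.19 in injured cartilage. The groups overlapped in both genotypes. The log2 difference was 0.08 in WT, with a 95% interval from -0.50 to 0.66 (adjusted p = 0.860), and -0.26 in KO, with an interval from -0.77 to 0.25 (adjusted p = 0.411). Both intervals lie inside a change of 2-fold in either direction.

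Ccl5, which binds Ccr1 and Ccr3, was 6.70, 6.37 and 6.61 in WT control and 7.06, 7.37 and 6.82 in WT injured cartilage. In KO it was 5.62, 6.48 and 6.64 in control, where the lowest value was below detection, and 6.60, 7.22 and 6.78 in injured cartilage. The WT groups did not overlap and the KO groups did. The log2 difference was 0.53 in WT (95% interval 0.05 to 1.00, adjusted p = 0.103) and 0.62 in KO (0.01 to 1.23, adjusted p = 0.102), so neither limit of the call was passed.

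Ccl20 lay outside the normalized table. Its brighter probe had mean signals of 167 ± 35.0 in WT control, 155 ± 34.9 in WT injured, 136 ± 14.4 in KO control and 161 ± 34.1 in KO injured cartilage (SD, n = 3), on a linear intensity scale without background correction. The probe was detected on 1 of 12 arrays, a KO injured array with a detection p-value of 0.0321, and the other Ccl20 probe on none. After neqc normalization of all probes, the log2 difference was 0.06 in WT (adjusted p = 0.931) and 0.44 in KO (adjusted p = 0.250). A change in Ccl20 was not detectable at these signals.

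**Figure D2:**
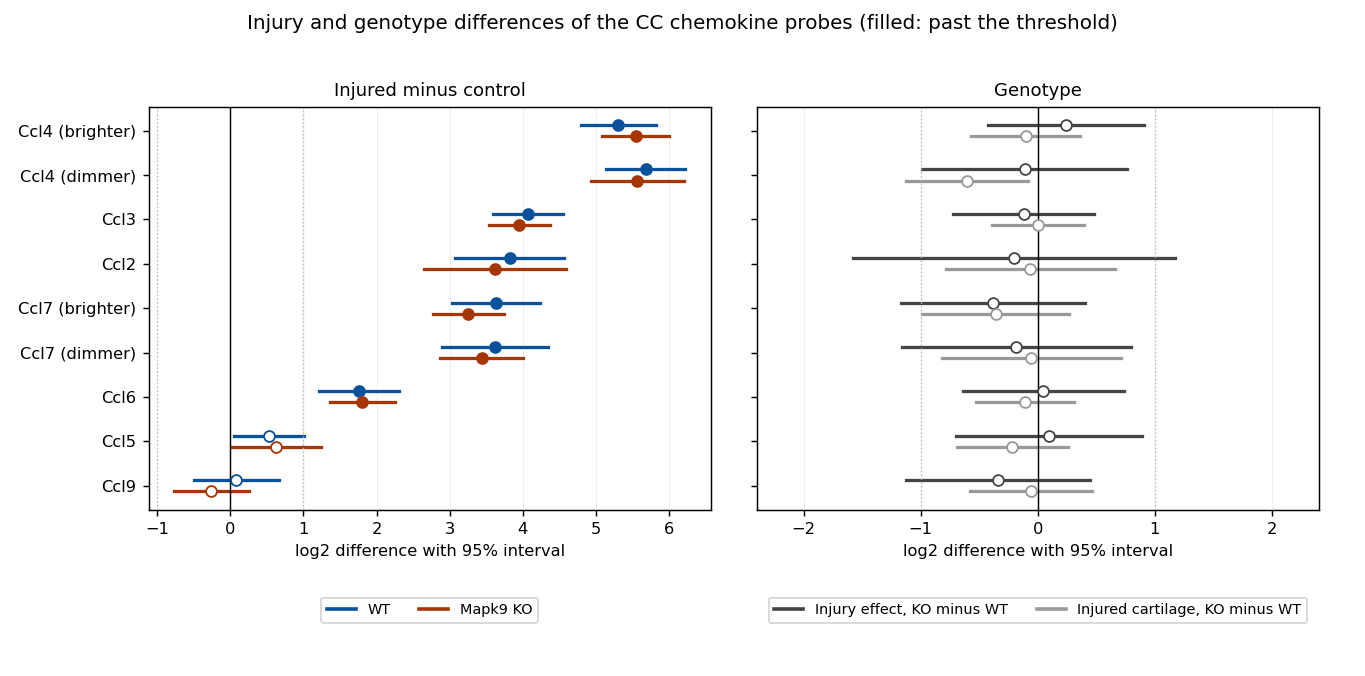
Log2 differences (horizontal axes) of each CC chemokine probe, with points at the estimate, lines for the 95% interval, filled points past the threshold and dotted lines at a 2-fold change. On the left, injured minus control in WT and in Mapk9 KO, where the intervals of both genotypes overlap for every probe; on the right, KO minus WT for the injury effect and for injured cartilage, where no point is filled.

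Whether loss of Mapk9 altered the CC chemokines was tested directly. None of the 7 members in the table was called between KO and WT, in control cartilage, in injured cartilage or for the size of the injury effect. The share of all gene symbols called was 0.149% for genotype in control cartilage, 0.201% for genotype in injured cartilage and 0% for the interaction of injury and genotype. For the interaction, 2088 of 21004 probes had an unadjusted p under 0.05, and the smallest adjusted p was 0.105. With the replicate number as a block, 96 genes had a higher and 9 a lower injury effect in KO, and 145 genes were higher and 29 lower in injured KO cartilage, and 0 of them were members.

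The difference in injury effect, KO minus WT, ranged over the main probes from -0.38 for Ccl7 to 0.24 for Ccl4 on the log2 scale (adjusted p 0.767 to 0.974). Its 95% interval was -0.72 to 0.48 for Ccl3, -0.43 to 0.91 for Ccl4, -0.64 to 0.74 for Ccl6 and -0.70 to 0.89 for Ccl5, so that for these genes an effect of 2-fold lay outside the interval. The interval reached past a 2-fold effect for Ccl2, from -1.58 to 1.17, for Ccl7, from -1.17 to 0.40, and for Ccl9, from -1.13 to 0.45. For Ccl2 and Ccl3 the control values of both genotypes were below detection, and the level in injured cartilage is then the measured quantity. In injured cartilage, KO minus WT was -0.06 for Ccl2 (-0.78 to 0.66) and 0.0019 for Ccl3 (-0.39 to 0.40).

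The widest gap between genotypes in injured cartilage was on the dimmer Ccl4 probe. It was 9.72, 10.27 and 9.92 in WT and 8.99, 9.79 and 9.33 in KO, so that the groups overlapped. Within same-numbered replicates, KO minus WT was -0.73, -0.48 and -0.60, lower in KO in 3 of 3 pairs. The log2 difference was -0.60 (SE 0.23, adjusted p = 0.336; with the replicate block SE 0.12, adjusted p = 0.0805), against -0.10 (SE 0.21, adjusted p = 0.865; 0.688 with the block) on the brighter probe of the same gene.

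The rest of the CC chemokine system was read from lists of genes. Of 16 other CC ligands, 15 were on the array and 11 in the normalized table, and 5 were never detected. None was called higher, whereas 4 were lower in WT and 6 in KO, and the median log2 difference over the 11 was -0.78 in WT and -1.17 in KO, against -0.02 and -0.04 over all genes. Ccl8, a monocyte chemoattractant located between Ccl12 and Ccl1, was 6.74 ± 0.53 in WT control and 4.74 ± 0.33 in WT injured cartilage (SD, n = 3). It was detected on all 3 WT control arrays and on no injured array, a fall of at least 1.87-fold in WT (adjusted p = 0.000895). In KO, Ccl8 was detected on 1 of 3 control arrays and had a log2 difference of -1.95 after injury (adjusted p = 5.97e-05). The size of this difference depends on values below detection in both groups, so no bound is given.

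Ccl19, a ligand of Ccr7, fell from 7.76 ± 0.22 to 6.52 ± 0.28 in WT (adjusted p = 0.00284) and from 7.35 ± 0.19 to 6.18 ± 0.42 in KO (adjusted p = 0.00216). Ccl11, the eosinophil chemoattractant eotaxin and the next gene after Ccl7, was 6.78 ± 0.81 and 6.00 ± 0.27 in WT (adjusted p = 0.143) and fell from 7.70 ± 0.28 to 6.12 ± 0.30 in KO (adjusted p = 0.000219); its interaction was not called (adjusted p = 0.601). The probes of Ccl21a, Ccl21b and Ccl21c read near-identical genes and are uncertain as to the copy. Of these genes, 1 was called lower in WT, Ccl21c (log2 difference -1.45, adjusted p = 0.0242), and this call was lost under 7 alternatives. In KO, 3 were called lower, by at least 3.78-fold to at least 5.05-fold. The interaction adjusted p of the 3 genes was 0.312 to 0.382. After the same injury, the run of genes from Ccl2 to Ccl1 therefore held higher values for Ccl2 and Ccl7 and lower values for Ccl8. Ccl11 was called lower in KO alone. Ccl12 was below detection on nearly all arrays (detected on at most 1 array), and Ccl1 was never detected.

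Of 11 CC receptors, 8 were detected on no array, among them Ccr1, Ccr2 and Ccr3. Ccr1, Ccr2 and Ccr3 were each read by 1 probe, so a lack of RNA and a weak probe cannot be told apart. Ccr6, the receptor of Ccl20, was detected on 4 of 12 arrays on its most often detected probe and did not pass in either genotype (adjusted p = 0.508 and 0.977).

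Of 5 atypical receptors, which bind chemokines without classical signalling, 3 were higher and 1 was lower after injury in both genotypes, with a median log2 difference of 1.29 in WT and 1.22 in KO. Ackr2, a scavenger of CC chemokines including Ccl2 and Ccl4, rose from 8.68 ± 0.52 to 10.60 ± 0.23 in WT (adjusted p = 0.00082) and from 8.09 ± 0.09 to 10.40 ± 0.12 in KO (adjusted p = 2.55e-06). Ackr4, a scavenger of Ccl19 and Ccl21, fell from 8.18 ± 0.14 to 5.81 ± 0.54 in WT (adjusted p = 0.000231) and from 8.08 ± 0.35 to 5.95 ± 0.45 in KO (adjusted p = 9.63e-05). Ackr3 and Ccrl2 rose by 1.33 and 1.29 on the log2 scale in WT and by 1.22 and 1.30 in KO. Ackr1, the binder of inflammatory chemokines on red cells and venules, was called in neither genotype (adjusted p = 0.171 in WT; in KO the log2 difference of -0.98 passed the adjusted p of 0.00459 but not the fold).

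**Figure D3:**
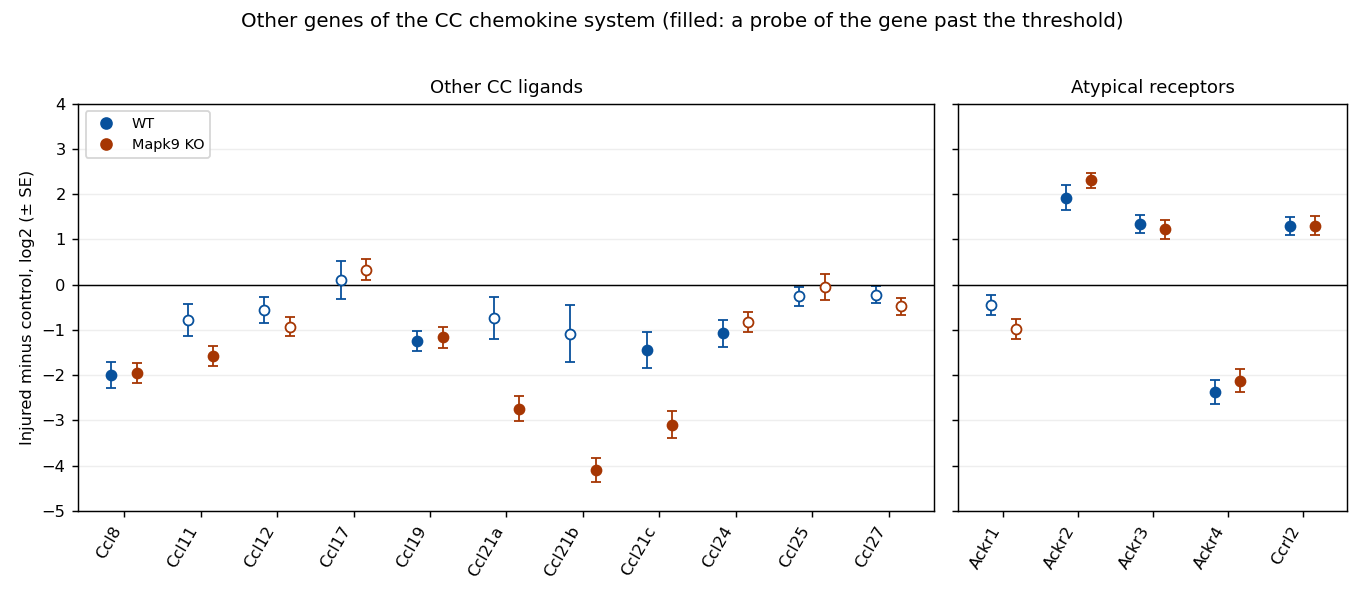
Injured minus control on the log2 scale (vertical axis; points are the estimate of the brightest probe, whiskers the SE) for the other CC ligands and the atypical receptors in the normalized table, in WT and Mapk9 KO. Filled points mark genes with a probe past the threshold; the filled ligands lie below 0, whereas Ackr2, Ackr3 and Ccrl2 lie above it.

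Of 17 inducers and feedback genes of the NF-kB pathway, 16 were in the normalized table, and 8 were higher after injury in WT and 10 in KO, with none lower. The median log2 difference was 1.13 in WT and 1.30 in KO. Il1b, the cytokine interleukin-1 beta, rose from 8.45 ± 0.47 to 11.90 ± 0.22 in WT (adjusted p = 2.09e-05) and from 8.55 ± 0.11 to 11.81 ± 0.36 in KO (adjusted p = 1.07e-06). Tnf was detected on injured arrays alone and was at least 1.96-fold higher in WT and at least 1.78-fold higher in KO. Tnfaip3, an inhibitor of NF-kB signalling, rose by 2.02 on the log2 scale in WT and by 2.05 in KO, and Zfp36, whose protein destabilizes cytokine mRNAs, rose by 2.69 and 2.86. None of the genes on these lists was called for genotype in control or injured cartilage or for the interaction.

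Levels of cell type markers were set beside these results, because many cell types make CC chemokines, and their part in the chemokine changes was not tested. Of 15 macrophage and monocyte markers, all in the table, 2 were higher in both genotypes while 9 were lower in WT and 10 in KO. Cd14, a receptor for bacterial lipopolysaccharide on myeloid cells, rose by 5.01 on the log2 scale in WT (adjusted p = 1.13e-06) and by 5.33 in KO. Csf1r, the receptor for the macrophage growth factor, fell from 9.27 ± 0.22 to 7.39 ± 0.45 in WT (adjusted p = 0.000648) and by 2.21 in KO. Adgre1, a defining macrophage marker, fell by 1.38 in WT and by 1.71 in KO, and Cd68 had a log2 difference of -0.78 in WT (adjusted p = 0.101) and fell by 1.40 in KO (adjusted p = 0.000137). The summed level of the list ran from 13371 to 18204 in WT control, from 26410 to 29630 in WT injured, from 17263 to 19521 in KO control and from 26965 to 35428 in KO injured arrays. Lyz2, Ly6c2 and Cd14, the 3 brightest genes of the list, made up 53.6% to 64.1% of the sum in WT control and 87.9% to 92.3% in WT injured arrays. The sum of the other 12 was lower in the injured arrays, running from 5859 to 8224 in WT control and from 2278 to 3187 in WT injured, and from 6844 to 7548 in KO control and from 2132 to 2505 in KO injured arrays. Lyz2, the macrophage lysozyme, was counted as higher through 1 of its 2 probes, while its brightest probe had log2 differences of 0.95 in WT and 0.96 in KO, under a 2-fold change.

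Neutrophil markers were bright on all arrays. S100a8 was 13.57 ± 0.45 in WT control and 13.89 ± 0.11 in WT injured cartilage (adjusted p = 0.383), and Mpo was 13.47 ± 0.47 and 14.14 ± 0.20 on its brightest probe (adjusted p = 0.0877). Of 11 neutrophil markers in the table, 8 were higher in WT and 6 in KO. Lcn2 rose by 2.03, Elane by 1.96 and Ngp by 1.65 on the log2 scale in WT, and by 1.30, 1.10 and 1.17 in KO. A gene was counted where any of its probes was called, and on the brightest probes alone 6 were higher in WT and 4 in KO. The difference was Mpo, counted through 3 of its 4 probes in WT and 2 in KO, and Ltf, counted through 1 of its 2 probes, whose brightest probe had log2 differences of 0.39 in WT (adjusted p = 0.286) and -0.20 in KO (adjusted p = 0.534). The summed level ran from 59489 to 100478 in WT control, from 143841 to 170921 in WT injured, from 80575 to 109704 in KO control and from 118612 to 168940 in KO injured arrays. Of the T and NK cell markers, 10 of 14 were in the table, with 1 higher and 1 lower in WT and 1 higher and 2 lower in KO. Their sum ran from 3796 to 6651 in WT control, from 4654 to 5811 in WT injured, from 4875 to 7970 in KO control and from 3651 to 4503 in KO injured arrays. Cd3e was not detected on any array and Cd3g was detected on 3, whereas Cd3d was detected on 11 and Lck, Cd2, Thy1 and Nkg7 on all 12. Nkg7, a granule gene of cytotoxic lymphocytes, rose by 2.44 in WT (adjusted p = 0.000254) and by 1.49 in KO (adjusted p = 8.44e-05).

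Skeletal muscle markers were lower after injury, 11 of 12 in WT and 12 of 12 in KO, and their summed level ran from 73856 to 96270 in WT control and from 10109 to 36400 in WT injured arrays. In KO the sum ran from 113351 to 178341 in control and from 13113 to 31965 in injured arrays. The WT muscle count was 0 by the methods' t-test after adjustment (7 at an unadjusted p under 0.05) and 4 when all probes of the array were tested after neqc, and it was 8 without WT control replicate 1, WT injured replicate 1 or WT injured replicate 2. In KO it was 11 or 12 under every alternative run. Of 9 chondrocyte markers in the table, 7 were higher and 1 lower in WT and 8 were higher in KO. The lower one, Col11a1, was called through 1 of its 3 probes, while its brightest probe had a log2 difference of 0.85 in WT (adjusted p = 0.0304). Their sum ran from 30594 to 51952 in WT control and from 80922 to 95890 in WT injured arrays. In KO the sum ran from 29511 to 46026 in control and from 71493 to 88644 in injured arrays. Acan, the cartilage proteoglycan aggrecan, rose by 2.03 in WT (adjusted p = 0.00444) and by 2.18 in KO, and Sox9, the transcription factor of chondrocytes, by 1.19 and 1.54, whereas Col2a1 had log2 differences of 0.54 (adjusted p = 0.150) and 0.03 (adjusted p = 0.937). The injured groups therefore differed from their controls in muscle, cartilage and myeloid markers as well as in CC chemokines. Of 9 endothelial markers, 1 was higher in WT and 0 were called in KO. Of 4 dendritic cell markers measured, 0 were called, of 6 mast cell markers 2 were higher and 1 lower in WT and 3 lower in KO, of 4 B cell markers 2 were higher in WT and 1 higher and 1 lower in KO, and of 4 osteoclast markers 2 were lower in WT and 3 in KO.

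**Figure D4:**
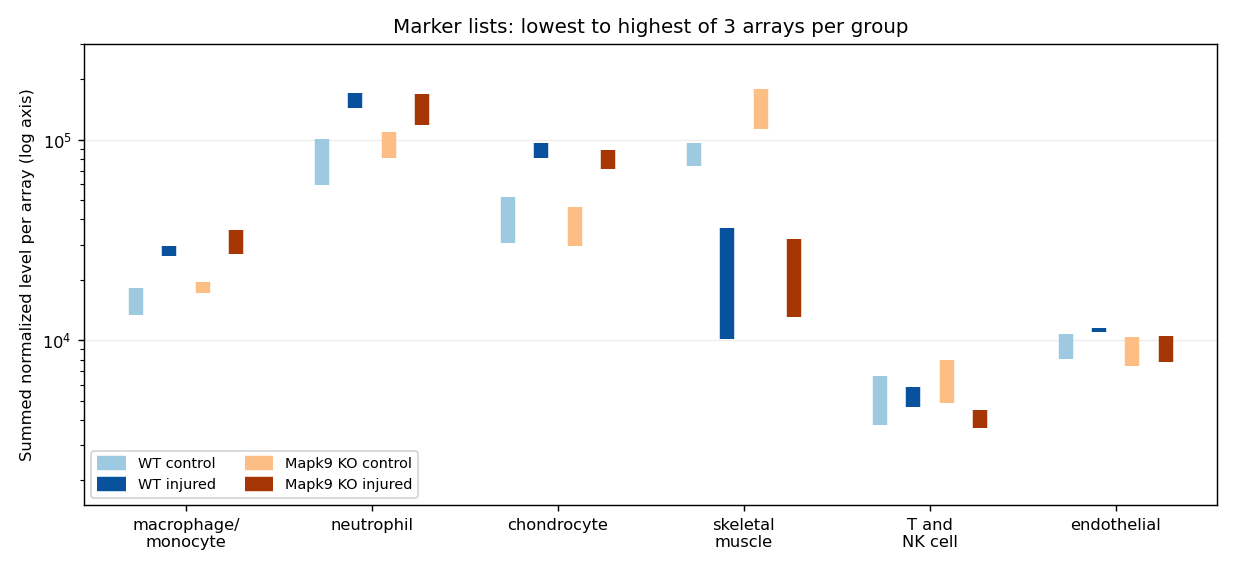
Summed normalized level of the markers of each cell type (vertical axis, log scale), with a bar from the lowest to the highest of the 3 arrays in each group. Muscle sums are lower and chondrocyte, neutrophil and macrophage sums are higher in the injured groups of both genotypes, with no overlap between injured and control bars of a genotype for these 4 lists. Lyz2, Ly6c2 and Cd14 make up most of the macrophage sum, and 9 of its 15 genes in WT and 10 in KO were lower after injury.

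The genes most like each member across the 12 arrays were found by Pearson correlation, given as a description without a test. The arrays fall into injured and control sets, and that split sets most of the high values. Ccl4 was most like Ldhc, which encodes a lactate dehydrogenase, and Plaur, the urokinase receptor, both at r = 0.997. Ccl3 was most like Krt2-19 (r = 0.995) and E030034J16Rik (r = 0.993), Ccl7 was most like Ets2 (r = 0.994) and Adora2b (r = 0.991), and Ccl2 was most like E330037I15Rik (r = 0.977) and Atf5 (r = 0.974). Ccl6 was most like Epx, the eosinophil peroxidase, at r = 0.989. Ccl5 and Ccl9, which did not pass, had lower values, 0.954 with Atf7ip for Ccl5 and 0.929 with D11Ertd497e for Ccl9.

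Promoter sequence was at hand for Ccl3, Ccl6, Ccl9 and Ccl20 (RefSeq, GRCm38.p6). The 250 bases before the start of Ccl3 and Ccl6, which rose, and of Ccl9, which did not pass, are given because these genes neighbour each other; a difference in response between them was not tested. Both strands were searched for the AP-1 site TGANTCA, for TATAAA and for the NF-kB consensus, and matches are in capitals.

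Ccl3 (chr11:83649379-83649628, minus strand): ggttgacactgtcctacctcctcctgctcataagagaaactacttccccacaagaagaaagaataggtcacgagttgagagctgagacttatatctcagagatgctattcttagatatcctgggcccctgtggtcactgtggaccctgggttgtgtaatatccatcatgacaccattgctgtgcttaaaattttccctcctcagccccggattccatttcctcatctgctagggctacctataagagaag
Ccl6 (chr11:83593088-83593337, minus strand): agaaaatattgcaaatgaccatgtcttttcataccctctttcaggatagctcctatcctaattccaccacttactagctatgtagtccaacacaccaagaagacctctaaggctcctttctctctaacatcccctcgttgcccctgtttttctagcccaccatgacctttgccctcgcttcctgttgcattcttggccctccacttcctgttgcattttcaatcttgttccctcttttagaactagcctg
Ccl9 (chr11:83578637-83578886, minus strand): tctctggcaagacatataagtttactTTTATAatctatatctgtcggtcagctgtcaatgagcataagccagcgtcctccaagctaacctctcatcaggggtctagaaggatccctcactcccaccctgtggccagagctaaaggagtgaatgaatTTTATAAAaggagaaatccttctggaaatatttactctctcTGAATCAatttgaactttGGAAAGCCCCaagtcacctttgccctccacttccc

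The windows of Ccl3 and Ccl6 held 0 matches to any of these motifs. The window of Ccl9 held 1 AP-1 match at 53 to 47 bases before the start, 1 NF-kB match at 35 to 26 bases before it, and 3 TATAAA matches, of which 2 overlap on opposite strands. The window of Ccl20 held 1 NF-kB match and neither of the other motifs. Over all 32851 promoters of the table, 6.75% held the AP-1 site, 7.25% the NF-kB consensus and 12.4% TATAAA in a window of the same length.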

How the data were processed

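The authors deposited signal intensities of 45281 probes with detection p-values, and log2 values of 21004 probes made by them from these intensities by a background correction against negative control beads and vsn normalization. Every sample column was mapped to a sample by its label. Each probe was tested on the deposited log2 values with limma 3.58.1 (lmFit, eBayes; R 4.3.3) on the 6 arrays of a comparison, and the interaction on all 12, with Benjamini-Hochberg adjustment over all probes. Calls needed an adjusted p under 0.05 and more than a 2-fold change, and for the interaction the adjusted p alone. A probe was taken as detected at a detection p-value under 0.05. Folds against a group with 0 of 3 arrays detected are bounds, taken per array from the lowest detected value in the table or the probe's value, whichever was higher. A gene's main probe is the one with the highest mean. A probe outside the table was read from the intensities, and neqc (offset 16) was applied to all probes for it. Genes were named by rule: every member with every probe, up to 4 called genes per list by WT adjusted p with the defining markers, and the 2 most similar genes per member. Some genes under this rule are not reported here, and Ccl11, Ccl12, Ccl21a, Ccl21b, Ccr6 and Ackr1 were named after their values were seen, as were Cd3d, Lck, Cd2, Thy1, Nkg7, Col11a1, Ltf, Lyz2 and Ly6c2. Members and lists were chosen with earlier results of these data known. Same-numbered replicates deviated together from their group means (r 0.153 to 0.390 over 18 pairs, against -0.289 to 0.0825 over 36 others), so the replicate number was run as a block beside the unblocked fits that give the values printed. The code was tested on simulated data. The number of arrays limits the precision.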

Additional observations from a re-analysis of the deposited data

How the results depend on the processing

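The count of members past the threshold was 5 in WT, 5 in Mapk9 KO and 0 for genotype and interaction under all alternatives run: neqc, quantile normalization without background correction, subtracted array medians, probes detected on at least 3 arrays, all probes by neqc, 1 fit of all 12 arrays, blocking by replicate or by the code number of the labels, the methods' t-test, 1 probe per gene, no fold limit, and each array left out in turn. The replicate block changed no call of a member (5, 5 and 0 called) and no count of the chemokine and NF-kB lists (17 and 21). Without background correction the log2 differences were smaller, 1.25 for Ccl2, 2.38 for Ccl3, 4.33 for Ccl4, 1.07 for Ccl6 and 2.37 for Ccl7 in WT, and 1.16, 2.41, 4.50, 1.08 and 2.10 in KO. The adjusted p of Ccl5 ran from 0.0391 to 0.336 in WT and from 0.0318 to 0.351 in KO, always below a fold of 2. Within each label code number the 5 called members were higher after injury, by 1.69 to 5.57 in WT and 1.75 to 5.66 in KO. Code number 2 in WT and code number 1 in KO held 1 injured and 1 control array each. With quantile normalization alone, 8 genes of the 4 chemokine and NF-kB lists were called in WT and 11 in KO, against 17 and 21; Ccl19, Ackr3, Ccrl2 and Tnf were among those lost in both genotypes, as was Ccl8, which neqc also lost in KO (-0.96). Ccl19 was lost in KO without Mapk9 KO injured replicate 1. In WT, Ccl21c and Ccl24 were each lost under 7 alternatives, Acan and Adgre1 under 2 and Sox9 under 3. By the methods' t-test, 0 muscle and 3 macrophage markers were lower and 4 chondrocyte markers higher in WT, against 11, 9 and 7; with all probes by neqc the muscle count was 4 and the chondrocyte count 4, and with quantile normalization alone 5 macrophage markers were lower. The sum without the 3 brightest macrophage genes and the marker counts on brightest probes were chosen after seeing the data. Over all genes, calls ran from 576 to 2181 higher and 391 to 2231 lower in WT, from 762 to 3171 and 701 to 3359 in KO, from 0 to 291 and 0 to 50 for genotype in control (291 without WT control replicate 3), from 0 to 145 and 0 to 33 for genotype in injured cartilage, and from 0 to 96 and 0 to 185 for the interaction.

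Small uncalled differences changed sign. For Ccl9 after injury in WT, neqc gave -0.0209, quantile -0.0198 and all probes -0.0209, and leaving out 1 array -0.16 to 0.25. For genotype in injured cartilage, neqc, quantile and all probes gave 0.0101, 0.0102 and 0.0101 for Ccl4 (1 array out: -0.32 to 0.028) and 0.0158, 0.0150 and 0.0158 for Ccl9 (-0.27 to 0.079). Subtracted medians gave -0.0138 and the label code block -0.0401 for Ccl3 (-0.13 to 0.12), and Ccl2 ran from -0.36 to 0.23. For the interaction, neqc, quantile and all probes gave 0.0156, 0.0309 and 0.0156 for Ccl3, and quantile gave -0.0210 for Ccl5 (-0.22 to 0.29). Leaving out 1 array gave -0.79 to 0.16 for Ccl2 and -0.092 to 0.27 for Ccl6. For genotype in control it gave -0.23 to 0.73 for Ccl2, -0.51 to 0.0032 for Ccl5 and -0.059 to 0.12 for Ccl7. The cause was not tested.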
